A study of Mus musculus with 3 samples.

Results

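Ifitm1, Ifitm2, Ifitm3, Ifitm6 and Ifi27l2a are 5 of the 31053 genes counted in single blood cells of C57BL/6J mice. They were picked by symbol, with earlier results from these libraries known, so their levels are a description and no test was made on them. Their UMIs (unique molecular identifiers, 1 per captured transcript) were summed per library within 5 lineages that were gated by other genes. Cells were gated in the order neutrophil (S100a8 and S100a9 at 5% or more of a cell's UMIs), B cell (3 or more UMIs of Cd79a, Cd79b and Ms4a1), T cell (2 or more of Cd3d, Cd3e, Cd3g and Trac), NK cell (2 or more of Ncr1, Klrb1c and Klra8) and monocyte (3 or more of Csf1r, Ms4a6c and F13a1). The study holds 3 droplet libraries of 1 sample each, all labelled 12 h: HDCA+CLP (HDCA-treated), CLP (CMC-treated) and Sham. The labels do not spell out the abbreviations; they are read here as hyodeoxycholic acid, a bile acid, caecal ligation and puncture (surgery that causes abdominal sepsis), and carboxymethylcellulose, a common vehicle. CMC is named for CLP and not for Sham, so surgery and vehicle cannot be told apart in CLP over Sham. The labels do not state how many animals gave a library, and with 1 library per group every interval below is a 95% interval for counting error only.

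IFITM proteins are small interferon-induced transmembrane proteins that sit in the plasma membrane and in endosomes and hinder the fusion of enveloped viruses with the cell. Ifitm3 is the member best known for restricting influenza virus in mice, Ifitm1 and Ifitm2 are close relatives of it, and Ifitm6 is a further mouse member of the same gene cluster. Ifi27l2a belongs to another family, that of Ifi27 (ISG12), whose small hydrophobic proteins are induced by type I interferon; type I interferon acts on such genes through the receptor chains Ifnar1 and Ifnar2 and a GAAA-rich element in their promoters.

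The 4 Ifitm genes lie within 63088 bases of mouse chromosome 7 (GRCm38, GENCODE annotation), in the order Ifitm2, Ifitm1, Ifitm3 and Ifitm6. Ifitm2 spans chr7:140954837-140955987 on the minus strand, Ifitm1 chr7:140967221-140969825 on the plus strand, Ifitm3 chr7:141009586-141010770 on the minus strand, and Ifitm6 chr7:141015699-141017924 on the minus strand. Ifi27l2a lies apart, at chr12:103442167-103443680 on the minus strand, in 4 exons against 2 or 3 for the Ifitm genes.

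Because these genes are classed as interferon-inducible, the sequence at their starts is shown for the 4 with a RefSeq promoter window (GRCm38.p6). The window runs from 250 bases before to 50 bases after the RefSeq start; Ifi27l2a is the member without one. It was searched on both strands for the paired GAAA motif (GAAA, any 2 bases, GAAA), the core of the interferon-stimulated response element, and for TTCNNNGAA, the STAT dimer element; capitals below mark the matches. Each line gives 60 bases, or 30 for Ifitm3, where the stretch lies after the start. The RefSeq start lies inside the annotated gene for each of the 4, by 855 bases for Ifitm1, 1032 for Ifitm6 and 26 for Ifitm2 and Ifitm3.
Ifitm1 (chr7:140968016-140968075, plus strand): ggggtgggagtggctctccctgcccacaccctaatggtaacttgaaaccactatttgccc
Ifitm2 (chr7:140955962-140956021, minus strand): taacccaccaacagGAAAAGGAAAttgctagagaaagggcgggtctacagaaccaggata
Ifitm3 (chr7:141010715-141010744, minus strand): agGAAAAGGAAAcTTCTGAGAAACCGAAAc
Ifitm6 (chr7:141016893-141016952, minus strand): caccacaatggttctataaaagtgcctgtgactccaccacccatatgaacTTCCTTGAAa
The same 10 letters, GAAAAGGAAA, stand at bases -46 to -37 from the Ifitm2 start and at bases 3 to 12 after the Ifitm3 start. Ifitm3 holds a further paired GAAA motif at bases 20 to 29, which overlaps a TTCNNNGAA at bases 14 to 22, and Ifitm6 holds a TTCNNNGAA at bases -10 to -2. Neither motif was found in the Ifitm1 window, and the paired GAAA motif was not found in that of Ifitm6. Of all 32851 windows, 3.44% hold the paired GAAA motif and 8.3% hold TTCNNNGAA. Of 32 type I interferon response genes with a window, from the list described below, 18 hold the paired GAAA motif and 5 hold TTCNNNGAA. These counts are per gene, over any of its windows, whereas the shares of all windows are per window. A match describes the letters in this window and says nothing of binding.

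Once filtered and cleared of called doublets, 10849 HDCA+CLP, 9853 CLP and 6496 Sham cells remained, with medians of 7159, 6484 and 5229 UMIs. The labels name mononuclear cells, yet the neutrophil gate took 8280 HDCA+CLP, 4512 CLP and 232 Sham cells. Its median depth was 7902 UMIs in HDCA+CLP, 8360.5 in CLP and 4246 in Sham. Monocytes numbered 276, 698 and 276 in the same order, B cells 276, 288 and 2657, T cells 1374, 3038 and 2999, and NK cells 491, 983 and 264. In each gate the summed level of the lineage's other markers was at least 4.16 times that in any other gate of the same library, and none of those markers was at 0. Pairs of libraries shared 17 to 34 cell barcodes.

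Of the 5 lineages, neutrophils held the highest levels of Ifitm1, Ifitm2 and Ifitm6, and the order of the Ifitm genes in them differed between the groups. Levels are CPM (counts per 1000000 UMIs of the gated cells); 3′ counting takes 1 tag per transcript, so they need no length correction. Ifitm1 had 1669 CPM in HDCA+CLP neutrophils (95% interval 1660 to 1679) and 1309 CPM in CLP neutrophils (1298 to 1321), against 5692 CPM in Sham neutrophils (5557 to 5830). It was thus the only one of the 5 that was lower in both CLP libraries than in Sham in this lineage. Ifitm6 had 8841 CPM in HDCA+CLP neutrophils and 9225 in CLP neutrophils, against 1810 in Sham neutrophils. Ifitm3 had 4674 CPM in HDCA+CLP and 3619 in CLP, against 1433 in Sham. Ifitm6 and Ifitm3 were both above Sham in the 2 CLP libraries, Ifitm6 by more.

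Ifitm2 differed least among neutrophils of the groups, at 5333 CPM in HDCA+CLP, 4883 in CLP and 3710 in Sham. Ifi27l2a had 1334 CPM in HDCA+CLP, 581 in CLP and 385 in Sham, so the HDCA+CLP library stood above both others. Summed over the 4 Ifitm genes, neutrophils had 20517 CPM in HDCA+CLP, 19036 in CLP and 12644 in Sham. Ifitm6 made up 43.1% of that sum in HDCA+CLP and 48.5% in CLP, against 14.3% in Sham (13.8% to 14.9%). Ifitm1 made up 8.14% in HDCA+CLP and 6.88% in CLP, against 45.0% in Sham (44.2% to 45.8%). The leading Ifitm transcript of neutrophils was therefore Ifitm6 in both CLP libraries and Ifitm1 in Sham.

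**Figure D1:**
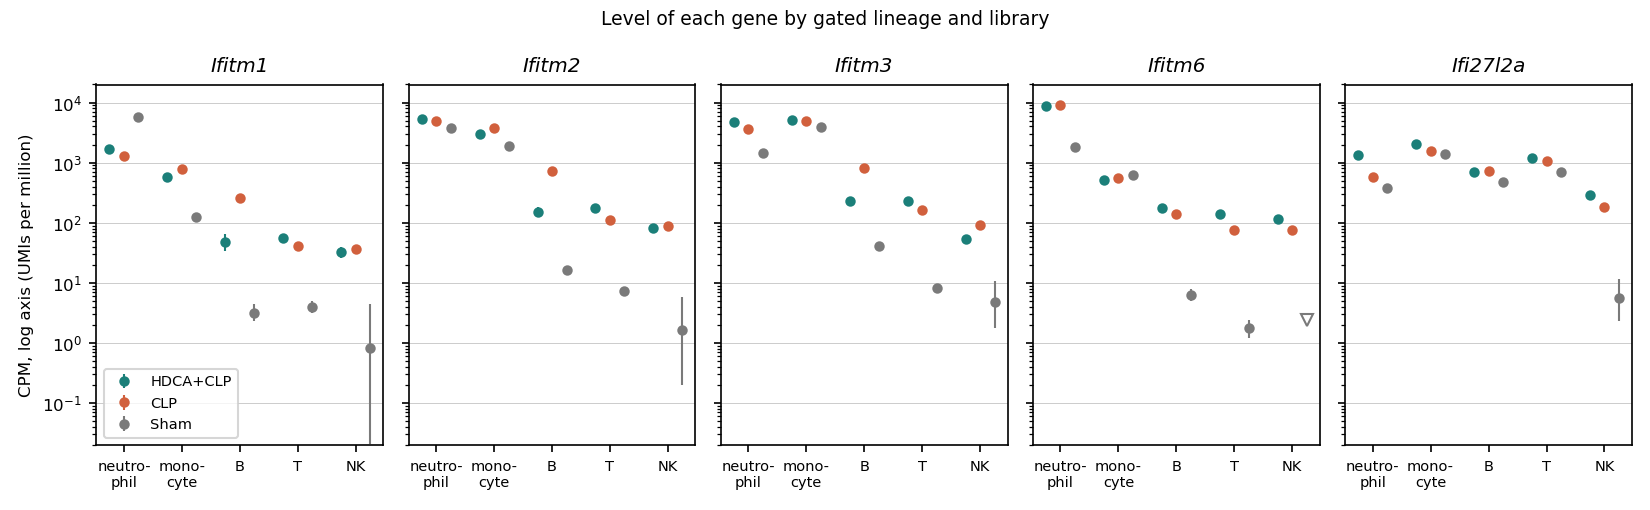
Level of each gene (CPM, log axis) in 5 gated lineages of the HDCA+CLP, CLP and Sham libraries; points are sums over the cells of 1 library, bars are 95% Poisson intervals for counting error, and the open triangle is the limit of 3 counts for Ifitm6 in Sham NK cells, which had 0 UMIs. Ifitm1 in neutrophils is highest in Sham at 5692 CPM, while Ifi27l2a stays between 385 and 2083 CPM outside NK cells.

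Monocytes had the highest Ifitm3 and Ifi27l2a of the 5 lineages in each library. Ifitm3 had 5172 CPM in HDCA+CLP monocytes, 4996 in CLP and 3976 in Sham, and it made up 55.6%, 49.7% and 59.9% of their Ifitm UMIs in that order. Ifi27l2a had 2083 CPM in HDCA+CLP monocytes, 1568 in CLP and 1392 in Sham. Ifitm2 had 3013 CPM in HDCA+CLP, 3727 in CLP and 1924 in Sham. These 3 genes were lowest in Sham monocytes, whereas Ifitm6 was highest there, with 525 CPM in HDCA+CLP, 552 in CLP and 614 in Sham. Free neutrophil RNA, estimated as described for lymphocytes below, would supply 242 CPM of Ifitm6 in HDCA+CLP monocytes and 176 in CLP monocytes, against 9.23 in Sham monocytes. With that supply subtracted, the log2 ratio of Ifitm6 in monocytes was -0.68 for CLP over Sham, against -0.15 as measured. The estimate takes every S100a8 and S100a9 UMI as free RNA. Monocytes had 9878 CPM of these in HDCA+CLP, 7213 in CLP and 1385 in Sham, above the T cells of the same libraries. What part of this the monocytes made themselves was not tested, and any such part would make the supply smaller.

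Ifitm1 in monocytes had 584 CPM in HDCA+CLP and 772 in CLP, against 124 in Sham. The order of groups was thus opposite to that of the same gene in neutrophils. The 5% of monocytes with the most Ifitm1 held 38.5% of its UMIs in HDCA+CLP and 41.6% in CLP, against 75.5% in Sham, so fewer Sham monocytes carried it. In CLP, 3 monocyte-gated cells with at least 3 UMIs of the basophil markers Mcpt8, Cpa3 and Fcer1a had 14153 CPM of Ifitm1, and without them CLP monocytes had 754 CPM; no monocyte of HDCA+CLP or Sham had 3 such UMIs. A further 7 CLP cells outside every gate carried the same markers, at 27784 CPM of Ifitm1, above that of every gated lineage.

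Ordered over the 15 lineages by library, each gene had its lowest level in Sham NK cells. The intervals of neighbours in that order overlapped in 6 of 14 neighbouring pairs for Ifitm1, 3 for Ifitm2, 2 for Ifitm3, 5 for Ifitm6 and 2 for Ifi27l2a. For Ifi27l2a the overlapping neighbours were HDCA+CLP B cells with CLP B cells, and HDCA+CLP B cells with Sham T cells. For Ifitm6 they lay among the monocytes and lymphocytes, and its 3 neutrophil levels stood apart.

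Ifi27l2a was the only one of the 5 with a substantial level in Sham B and T cells, where none of the 4 Ifitm genes exceeded 40.3 CPM. T cells had 1180 CPM in HDCA+CLP, 1083 in CLP and 696 in Sham, and B cells had 702, 740 and 478 CPM in the same order. NK cells had 290 CPM in HDCA+CLP and 180 in CLP, against 5.68 in Sham, which rests on 7 UMIs in 264 cells. NK cells of Sham were therefore the one gated population almost without Ifi27l2a. After each cell was thinned to 2000 UMIs, 24.6% of HDCA+CLP and 18.8% of CLP NK cells had at least 1 UMI of it, against 1.20% of Sham NK cells. Without thinning the shares were 35.6%, 27.0% and 2.65%, at median depths of 4770, 5375 and 4439.5 UMIs; 8, 16 and 13 cells were too shallow to thin. Summed T cell markers in NK cells had 472 CPM in HDCA+CLP and 560 in CLP, against 662 in Sham; the part of stray T cell RNA in the NK values was not tested.

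The 4 Ifitm genes had low levels in lymphocytes, and there the RNA that neutrophils release into the suspension has to be set beside them. S100a8 and S100a9, which define the neutrophil gate, had 4511 CPM in HDCA+CLP T cells and 3087 in CLP T cells, against 84.6 in Sham T cells. Scaling each gene's level in neutrophils of the same library to these S100 levels gives the level such free RNA would supply. Ifitm6 had 137 CPM in HDCA+CLP T cells, 1.24 times what free neutrophil RNA would supply, and 75.9 CPM in CLP T cells, 1.01 times it. It had 1.75 CPM in Sham T cells, 3.10 times the supply there from 36 UMIs. In NK cells Ifitm6 stood at 1.14 times that supply in HDCA+CLP and 1.08 times in CLP. There 0 of 264 Sham NK cells held a UMI, where 3 counts would be 2.43 CPM and the interval reached 2.99 CPM. Ifitm6 in T and NK cells of the CLP libraries was thus near background by this measure. Ifi27l2a, by contrast, was at 70.6 times that supply in HDCA+CLP T cells, 229 times in CLP and 5800 times in Sham.

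Ifitm1, Ifitm2 and Ifitm3 lay between these extremes. Ifitm3 had 228 CPM in HDCA+CLP T cells and 165 in CLP T cells, against 8.26 in Sham T cells. These levels were 3.89 and 5.59 times the free supply in the CLP libraries, against 18.5 times in Sham. A few T cells carried much of it: 10 HDCA+CLP and 14 CLP T cells that also passed the monocyte gate held 46.2% and 45.8% of the Ifitm3 UMIs, and 6 such Sham cells held 32.4%. Without these cells T cells had 125 CPM of Ifitm3 in HDCA+CLP, 90.9 in CLP and 5.60 in Sham, at 2.15, 3.09 and 12.7 times the free supply. Ifi27l2a in T cells was little changed without them, at 1145 CPM in HDCA+CLP, 1076 in CLP and 698 in Sham.

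**Figure D2:**
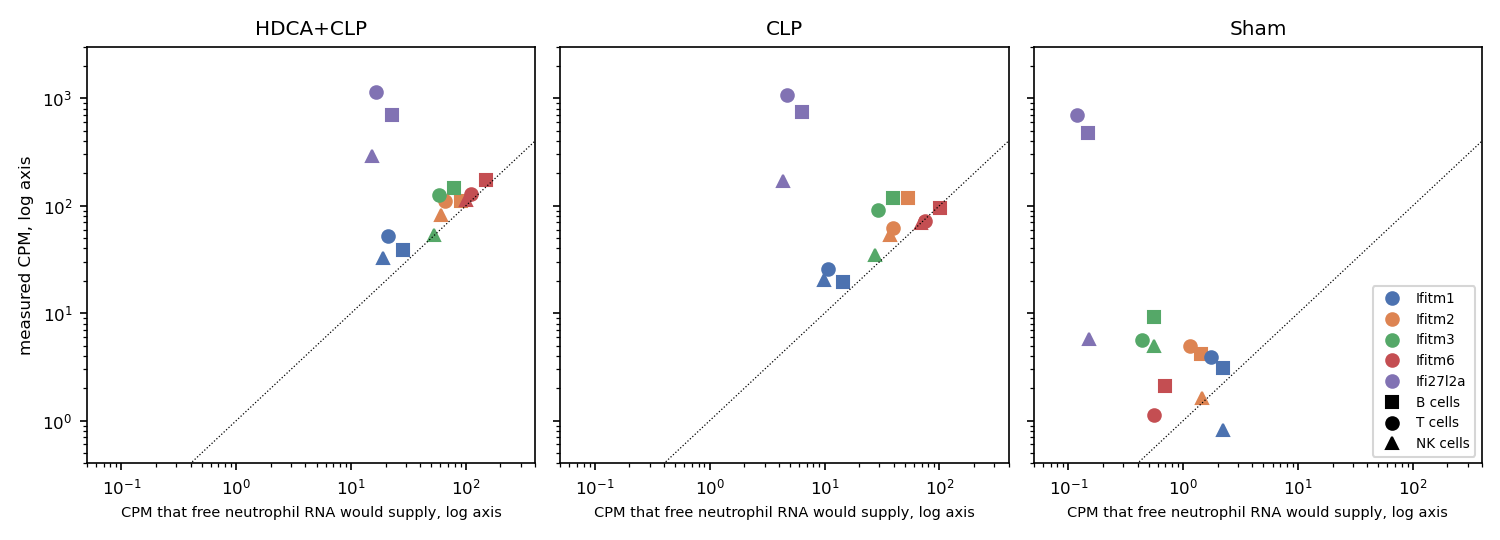
Measured level (CPM, log axis) against the level that free neutrophil RNA would supply (CPM, log axis) for each gene in B, T and NK cells that do not pass the monocyte gate, with HDCA+CLP left, CLP in the middle and Sham right; the dotted line marks equal values, and Ifitm6 in Sham NK cells, at 0 UMIs, is not drawn. Ifitm6 lies on or near the line in both CLP libraries, and Ifi27l2a lies far above it in every panel.

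The comparison of CLP with Sham sets 1 CMC-treated library of the sepsis model beside 1 Sham library, both at 12 h. Over 5 genes in 5 lineages, 16 of 25 gene and lineage pairs were at least 2-fold higher in CLP and 1 was at least 2-fold lower. All 25 pairs passed the minimum of 20 UMIs over both libraries, and the median log2 ratio was 3.35. In neutrophils 2 of 5 genes were at least 2-fold higher and 1 lower, where 11.6% and 24.7% of all genes measured were. In monocytes 1 of 5 was higher and none lower, against 11.1% and 16.9% of all genes. In B cells 4 of 5 were higher (9.78% of all genes) and none lower (13%), in T cells 4 of 5 (9.84%) and none (6.74%), and in NK cells 5 of 5 (7.15%) and none (13%). The median log2 ratio of all genes was between -0.28 and -0.03 in the 5 lineages, so the ratios are read against a background close to 0.

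In neutrophils Ifitm1 and Ifitm6 differed in opposite directions. Ifitm1 had a log2 ratio of -2.12 (-2.16 to -2.08), a level 4.35-fold lower in CLP, which lies inside the 5th to 95th percentile of all genes in this lineage (-2.23 to 1.56). Ifitm6 had 2.35 (2.29 to 2.41) above that span, and Ifitm3 had 1.34 (1.27 to 1.41), inside it. Ifi27l2a had 0.59 in neutrophils, 0.17 in monocytes, 0.63 in B cells and 0.64 in T cells, all short of 2-fold, and 4.99 in NK cells (3.94 to 6.31). In monocytes Ifitm1 alone passed 2-fold, with a log2 ratio of 2.64 (2.48 to 2.79), and Ifitm2 was just short of it at 0.95. Ifitm2 passed 2-fold there with median-of-ratios scaling, at 1.16.

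The highest log2 ratio of CLP over Sham was that of Ifitm1 in B cells, at 6.31, from cells described below. In Sham NK cells the Ifitm genes rest on 1 UMI for Ifitm1, 2 for Ifitm2 and 6 for Ifitm3. The log2 ratio of CLP over Sham was 5.47 for Ifitm1 with an interval of 2.98 to 10.8, and 5.78 for Ifitm2 with an interval of 3.92 to 8.83. Ifitm6 was 30.8-fold higher in CLP NK cells than 3 counts in Sham would be, and from 0 Sham UMIs the interval of its log2 ratio began at 4.64. Once the free supply was subtracted and the cells at the monocyte gate left out, Ifitm6 was at or under 3 counts in both CLP and Sham NK cells. In T cells CLP was then at or under 3 counts too, and the log2 ratio of Ifitm6 against that limit was -1.59, so the direction turned with that correction.

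Few cells also carried much of the Ifitm signal of CLP NK cells. The 4 CLP NK cells that passed the monocyte gate held 44.7% of the Ifitm1, 41.3% of the Ifitm2 and 63.4% of the Ifitm3 UMIs, where no HDCA+CLP and 2 Sham NK cells passed it. Without such cells the log2 ratio of CLP over Sham was 4.62 for Ifitm1 (2.12 to 9.94), 5.02 for Ifitm2 (3.16 to 8.07) and 2.82 for Ifitm3 (1.67 to 4.28). CLP NK cells were then at 2.05 times the free neutrophil supply for Ifitm1, 1.45 times for Ifitm2 and 1.27 times for Ifitm3. With that supply subtracted too, Ifitm3 was no longer 2-fold higher, at a log2 ratio of 0.77. Ifi27l2a stood at 39.1 times the supply in these CLP NK cells and kept a log2 ratio of 4.90.

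**Figure D3:**
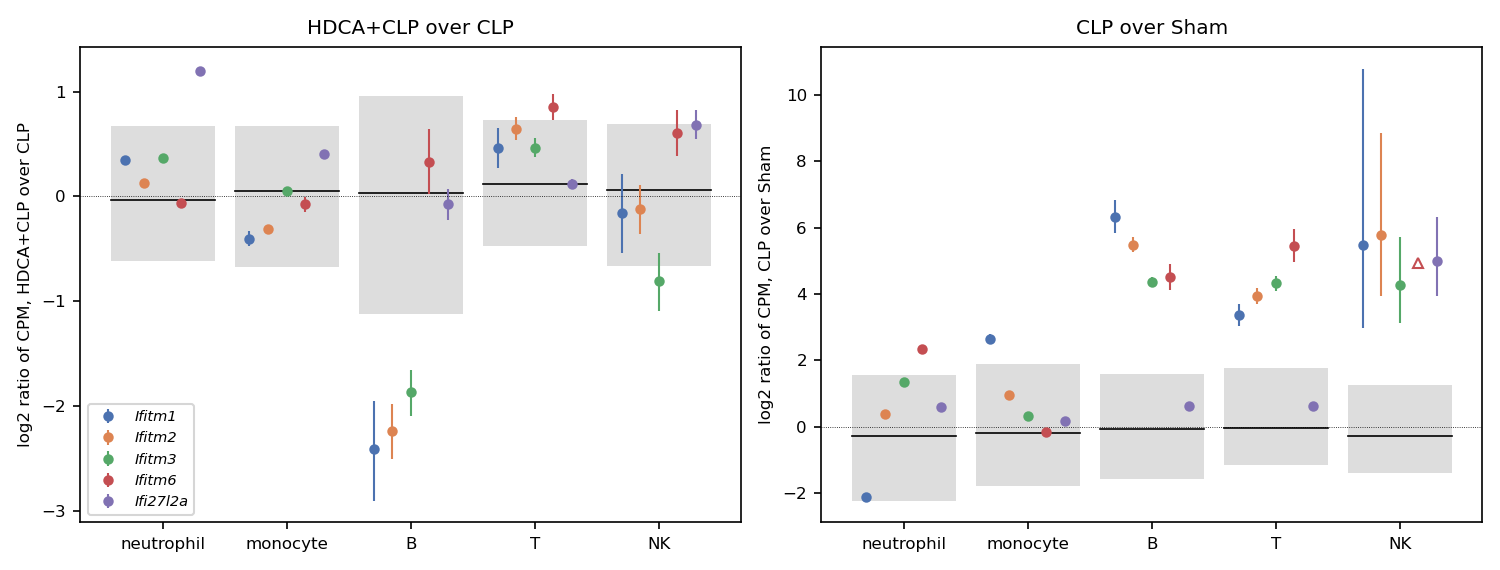
Log2 ratio of CPM for each gene and lineage, HDCA+CLP over CLP (left) and CLP over Sham (right), with 95% counting intervals; grey boxes span the 5th to 95th percentile of all genes measured in that lineage, the black line is their median, and the open triangle is Ifitm6 in NK cells against 3 counts in Sham. On the right, Ifitm1 in neutrophils is the lowest point at -2.12 and the Ifitm genes of B, T and NK cells all lie above their boxes.

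Neutrophils of the groups differed in maturity genes, so the 5 genes were read again at like levels of these. The granule genes Camp, Ngp, Ltf, Lcn2 and Chil3, which neutrophils transcribe while they mature in bone marrow, made up a median of 6.66% of a neutrophil's UMIs in HDCA+CLP and 6.79% in CLP, against 0.448% in Sham. Under 1% lay 10 HDCA+CLP and 8 CLP neutrophils, against 188 of the Sham neutrophils. The ranges are cuts of a continuous share: 2896 HDCA+CLP, 1551 CLP and 22 Sham cells lay within 10% of a cut. Where whole libraries differ so much in this share, their neutrophil levels compare different mixtures of cells.

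Within the HDCA+CLP and CLP libraries, from 1% upward, Ifitm1 was lower and Ifitm6 higher where the granule share was higher. In CLP, Ifitm1 had 2934 CPM at 1 to 3%, 2078 at 3 to 6%, 1051 at 6 to 10% and 574 CPM at 10% or more. HDCA+CLP neutrophils showed the same order, with 3209, 2818, 1254 and 699 CPM. Ifitm6 had 5246, 7568, 9811 and 10872 CPM over these ranges in CLP, and 5626, 7373, 9492 and 10202 CPM in HDCA+CLP. The 2 genes thus ran in opposite directions along the granule share in both libraries, and Ifi27l2a ran with Ifitm1, from 1398 CPM at 1 to 3% to 259 CPM at 10% or more in CLP.

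CLP and Sham could be set side by side with more than 20 cells each only at 1 to 3%, with 343 CLP and 28 Sham cells. There Ifitm1 had 2934 CPM in CLP and 4548 in Sham, a log2 ratio of -0.63, which is short of 2-fold and smaller than the -2.12 over all neutrophils. Ifitm6 had 5246 CPM in CLP and 2194 in Sham, a log2 ratio of 1.26, where it was 2.35 over all neutrophils. Both differences were thus smaller in this range than over all neutrophils, and neither changed sign there. Ifi27l2a had 1398 CPM in CLP and 356 in Sham in this range, a log2 ratio of 1.97, above the 0.59 over all neutrophils. Under 1%, with only 8 CLP cells against 188 Sham cells, Ifitm1 was still past 2-fold lower in CLP, at -1.43 (-1.71 to -1.17). Ifitm6 had 0.51 there, and Ifi27l2a had -0.43 (-1.28 to 0.32), so its higher CLP level at 1 to 3% was not seen under 1%. At 3% and more Sham had 4 to 6 cells per range, and the 36 Ifitm1 UMIs of the 4 cells at 3 to 6% put CLP above Sham at a log2 ratio of 1.13.

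Ifitm3 changed less along the granule share than the other members. From 1% upward it lay between 4292 and 5171 CPM in HDCA+CLP and between 3352 and 4073 CPM in CLP, against 1103 to 1766 CPM in Sham. The 3 libraries therefore did not overlap in Ifitm3 in any of these ranges, and the order was HDCA+CLP, CLP and Sham in each. Ifitm2 was highest at 3 to 6%, with 6956 CPM in HDCA+CLP and 6121 CPM in CLP, against 1871 CPM in the 4 Sham cells there.

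**Figure D4:**
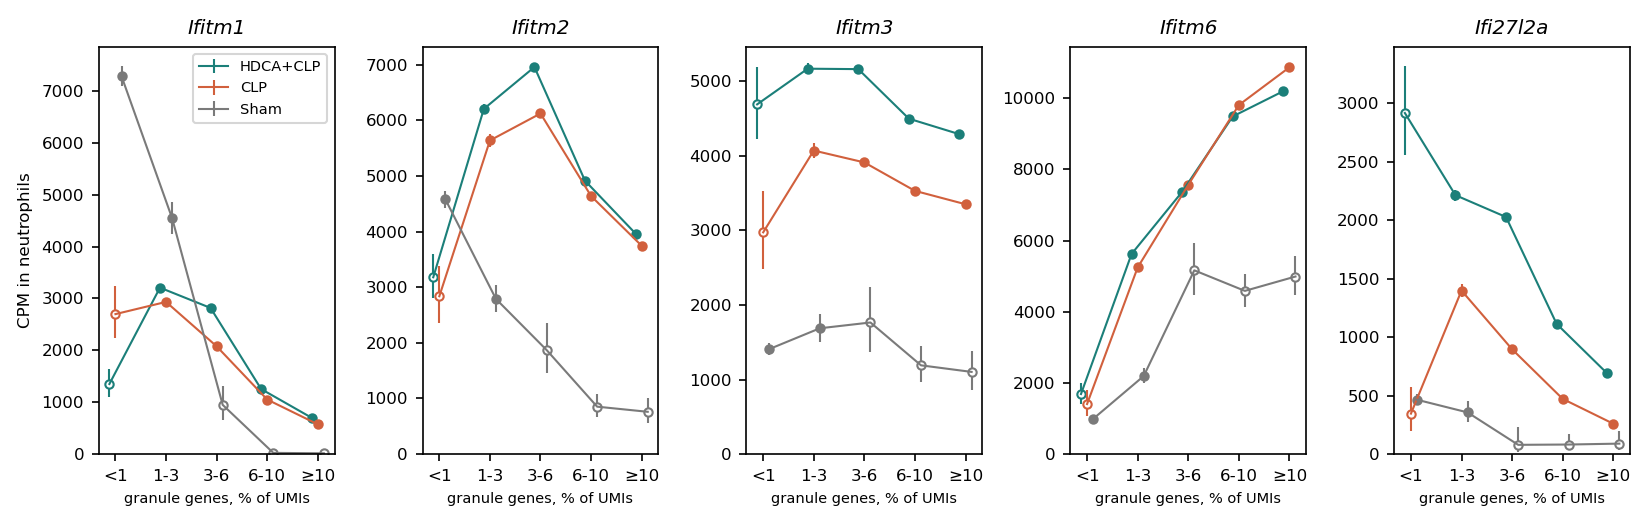
Level of each gene (CPM, linear axis) in neutrophils by the share of a cell's UMIs from 5 granule genes, for HDCA+CLP, CLP and Sham; bars are 95% Poisson intervals and open points rest on fewer than 20 cells. From 1% upward, Ifitm1 is lower and Ifitm6 higher in each next range in HDCA+CLP and in CLP, and Ifi27l2a of HDCA+CLP lies above CLP in every range.

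The comparison of HDCA+CLP with CLP sets 1 HDCA-treated library beside 1 CMC-treated library. Of the 25 pairs, 1 was at least 2-fold higher in HDCA+CLP and 3 were at least 2-fold lower, with a median log2 ratio of 0.12. The pair that was higher was Ifi27l2a in neutrophils, at 1334 CPM in HDCA+CLP and 581 in CLP, a log2 ratio of 1.20 (1.18 to 1.22) and it stayed at least 2-fold higher under each alternative cell filter, neutrophil gate and scaling that could move a neutrophil sum. In this lineage 2.09% of all genes were at least 2-fold higher and 1.6% at least 2-fold lower, and no other of the 5 genes was. Monocytes had 0 of 5 either way (1.83% and 2.4% of all genes), as did T cells (2.14% and 1.61%) and NK cells (1.4% and 2.11%). The 3 that were lower were Ifitm1, Ifitm2 and Ifitm3 in B cells, where 6.23% of all genes were at least 2-fold lower and 4.27% higher.

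Ifi27l2a was higher in HDCA+CLP neutrophils over the whole range of granule share. The log2 ratio of HDCA+CLP over CLP was 0.66 at 1 to 3%, 1.18 at 3 to 6%, 1.24 at 6 to 10% and 1.41 at 10% or more. After thinning to 2000 UMIs, 62.2% of HDCA+CLP neutrophils and 43.4% of CLP neutrophils had at least 1 UMI of it, against 29.0% of Sham neutrophils. Without thinning the shares were 73.7%, 57.3% and 36.2%, and 124, 83 and 8 cells were too shallow to thin. The share was therefore higher in HDCA+CLP at equal depth too. Sham NK cells, almost without the gene, stood at 1.20%, but NK cells were at 24.6% in HDCA+CLP and 18.8% in CLP. The Sham NK value therefore gives no background rate for the CLP libraries. Ifi27l2a was also higher in HDCA+CLP than in CLP monocytes, with a log2 ratio of 0.41, and in NK cells, with 0.69, both short of 2-fold.

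The 4 Ifitm genes of HDCA+CLP neutrophils were close to CLP: Ifitm1 had a log2 ratio of 0.35, Ifitm2 of 0.13, Ifitm3 of 0.37 and Ifitm6 of -0.06. For all genes measured in neutrophils the 5th and 95th percentiles were -0.62 and 0.67. These 4 values thus lay within the spread of other genes, and Ifi27l2a at 1.20 lay above it. In T cells the log2 ratios of HDCA+CLP over CLP were 0.46 for Ifitm1, 0.65 for Ifitm2, 0.47 for Ifitm3, 0.86 for Ifitm6 and 0.12 for Ifi27l2a. The S100 level of T cells was also higher in HDCA+CLP, at 4511 CPM against 3087 in CLP, and the ratios shifted when it was allowed for. With the free supply subtracted, Ifitm6 in T cells had a log2 ratio of 5.23, as little was then left in CLP. With the cells at the monocyte gate left out as well, Ifitm1 in T cells had 1.04 and Ifitm2 had 1.02, both just past 2-fold. Leaving out those cells alone gave 1.01 for Ifitm1, and the mean over cells gave 1.02.

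In NK cells some ratios of HDCA+CLP over CLP passed 2-fold under other settings too. Ifitm3 had -0.81 as measured, -1.45 without doublet removal and -5.83 with the free supply subtracted, where HDCA+CLP, at 1.01 times that supply, was set to 3 counts. Ifitm2 had -0.12 as measured and -1.27 with the free supply subtracted, and Ifitm6 had 0.61 and 1.40. Without the cells at the monocyte gate, Ifitm3 and Ifitm2 both had 0.62, so neither had a settled direction between HDCA+CLP and CLP. Ifitm6 had 0.71 there and kept its sign in these settings, at levels near the free supply in both libraries.

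Most Ifitm1, Ifitm2 and Ifitm3 UMIs of CLP B cells came from 11 cells. B cells had 47.6 CPM of Ifitm1 in HDCA+CLP and 254 in CLP, a log2 ratio of -2.41 (-2.91 to -1.95), against a Sham level of 3.20 CPM. Ifitm2 had 153 CPM in HDCA+CLP and 722 in CLP, and Ifitm3 had 227 and 829 CPM in the same order. The 11 CLP B cells that also passed the monocyte gate had a median of 29090 UMIs, against 3242 in the other CLP B cells, and held 94.0% of the Ifitm1, 87.3% of the Ifitm2 and 88.8% of the Ifitm3 UMIs. Only 1 HDCA+CLP B cell passed both gates. Without such cells Ifitm1 had 38.3 CPM in HDCA+CLP and 19.3 in CLP, Ifitm2 110 and 117, and Ifitm3 148 and 119, and none of the 3 was 2-fold lower. With free neutrophil RNA subtracted as well, Ifitm2 was again lower in HDCA+CLP, at a log2 ratio of -1.66, while Ifitm1 had 1.01 and Ifitm3 had -0.21. That Ifitm1 ratio rests on 34 UMIs in HDCA+CLP and 21 in CLP before the subtraction, each at 1.35 times the free supply.

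The summed level of 10 monocyte markers in B cells was 309 CPM in HDCA+CLP and 1673 in CLP, against 231 in Sham. B cells of CLP without the 11 cells were still above Sham, with 117 CPM of Ifitm2 against 4.16 and 119 CPM of Ifitm3 against 9.15. They were at 2.18 times the free neutrophil supply for Ifitm2 and 2.99 times for Ifitm3, but at 1.35 times for Ifitm1 and 0.94 times for Ifitm6, both near background. Ifi27l2a in B cells did not depend on these cells: without them it had 700 CPM in HDCA+CLP, 748 in CLP and 477 in Sham.

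Within monocytes, Ifitm6 and Ifi27l2a were higher in cells with more UMIs of Ly6c2 and Ccr2, markers of classical monocytes, than of Cx3cr1, Ace, Nr4a1 and Treml4, markers of patrolling monocytes. The classical side numbered 248 HDCA+CLP, 604 CLP and 149 Sham cells, and the patrolling side 21, 74 and 123. Ifitm6 had 531 CPM on the classical side in HDCA+CLP, 579 in CLP and 659 in Sham, against 350, 189 and 529 CPM on the patrolling side. Ifi27l2a had 2115, 1605 and 1532 CPM on the classical side, against 1373, 1013 and 1072 CPM on the patrolling side. Both genes were higher on the classical side in all 3 libraries. Ifitm1 had 606, 764 and 158 CPM on the classical side, against 87.5, 758 and 59.6 CPM on the patrolling side, so CLP alone showed no gap between the sides. The patrolling cells of HDCA+CLP and CLP had lower depth, with medians of 4638 and 7067 UMIs against 13696 and 15061.5 on the classical side.

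Monocytes with at least 3 UMIs of the progenitor markers Kit, Cd34, Mpo, Elane and Prtn3 numbered 70 in HDCA+CLP, 164 in CLP and 10 in Sham. They had less Ifi27l2a than other monocytes, at 1176 against 2649 CPM in HDCA+CLP, 893 against 1953 in CLP and 539 against 1451 in Sham. Ifitm1 was higher in them in both CLP libraries, at 673 against 528 CPM in HDCA+CLP and 1015 against 633 in CLP, but not in the 10 Sham cells, at 107 against 125 CPM. Monocytes without these markers still had more Ifitm1 in CLP, at 633 CPM, than in Sham, at 125 CPM.

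Among T cells outside the monocyte gate, cells with Foxp3, the regulatory T cell factor, had 1743 CPM of Ifi27l2a in HDCA+CLP, 2573 in CLP and 2388 in Sham, from 36, 56 and 128 cells. CD4 cells without Ccl5 had 1769 CPM in HDCA+CLP, 1470 in CLP and 844 in Sham. CD8 cells without Ccl5 had 802, 693 and 475 CPM in this order, and CD8 cells with Ccl5, a chemokine of memory and effector cells, had 1030, 838 and 336 CPM. Cells with Foxp3 were not taken out of the CD4 and CD8 groups, so the groups can overlap. The Foxp3 cells were highest in CLP and in Sham. They were the only one of these T cell groups in which HDCA+CLP, here 36 cells, was below Sham. In the other 3 groups the order was HDCA+CLP, CLP and Sham.

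The 5 genes were set beside 42 other type I interferon response genes, such as Isg15, Ifit1, Rsad2, Mx1 and Oasl2, of which 41 are in the feature table. In CLP over Sham, 21 of 40 measured list genes were at least 2-fold higher in neutrophils and 4 were lower, with a median log2 ratio of 1.08. Monocytes had 12 of 40 higher and 0 lower (median 0.58), and B cells 23 of 37 higher and 1 lower (1.36). T cells had 30 of 40 higher and 0 lower (1.72), and NK cells 18 of 36 higher and 1 lower (0.94). Of all genes, 11.6% were higher in neutrophils, 11.1% in monocytes, 9.78% in B cells, 9.84% in T cells and 7.15% in NK cells. The shares lower were 24.7%, 16.9%, 13%, 6.74% and 13% in this order. In neutrophils the highest list genes were Ifit1 at 3.94 and Lgals3bp at 3.19, and the lowest Phf11d at -2.03 and Mx1 at -1.98. Ifi27l2a in T cells, at 0.64, was thus below the median of this list there, and so were its ratios in neutrophils, monocytes and B cells, while its 4.99 in NK cells was above it. In HDCA+CLP over CLP, 2 of 41 list genes were at least 2-fold higher in neutrophils and 0 lower, against 2.09% and 1.6% of all genes. The 2 were Ifi44 at 1.24 and Phf11d at 1.03, and the list median was 0.19. Ifi27l2a at 1.20 lay between these 2. The medians were 0.01 in monocytes, 0.18 in B cells, -0.10 in T cells and 0.45 in NK cells. Higher and lower list genes numbered 0 and 1 of 40 in monocytes (1.83% and 2.4% of all genes). In B cells they numbered 3 and 2 of 34 (4.27% and 6.23%). In T cells they numbered 1 and 0 of 40 (2.14% and 1.61%), and in NK cells 2 and 0 of 38 (1.4% and 2.11%).

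Of the ligands, none of the 13 Ifna genes named in the pathway list had a UMI in a gated lineage, Ifnab had 1, and Ifnb1 had at most 8, all in monocytes. Ifng, the type II ligand, had 10.4 CPM in HDCA+CLP T cells and 25.5 in CLP T cells, against 1.89 in Sham T cells. In NK cells it had 136, 199 and 117 CPM in this order. Of the receptors, Ifnar1 and Ifnar2 stayed within 2-fold in CLP over Sham in every lineage, and in HDCA+CLP over CLP except for Ifnar2 in B cells, which had 9 UMIs in HDCA+CLP and 60 in CLP. Irf7, the factor that sustains the type I response, had 256 CPM in HDCA+CLP neutrophils and 150 in CLP neutrophils, against 45.7 in Sham neutrophils, so it had the same order of groups as Ifi27l2a. Stat2, a transcription factor of the type I response, had 40.3, 55.6 and 17.8 CPM there, with CLP highest. Of the inhibitors, Socs1 had a log2 ratio of 2.21 (1.40 to 3.16) in neutrophils for CLP over Sham, with 12 Sham UMIs. Usp18 had 1.78 (0.79 to 3.00), with 8 Sham UMIs. Socs3, at 91.9 CPM in HDCA+CLP and 78.1 in CLP against 345 in Sham, had -2.14.

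Cell by cell, the members went different ways along the summed UMIs of the interferon list, counted after thinning each cell to 2000 UMIs. From neutrophils with 0 to 2 list UMIs to those with 10 or more, Ifi27l2a went up from 1029 to 1989 CPM in HDCA+CLP, from 427 to 1127 in CLP and from 250 to 879 in Sham. Ifitm1 went up from 861 to 2514 CPM and Ifitm3 from 3125 to 4511 CPM in CLP. Ifitm6 went down over the same bands, from 9540 to 6993 CPM in HDCA+CLP, from 10098 to 6748 in CLP and from 2017 to 848 in Sham. Over all neutrophils, Ifitm6 thus ran against the interferon list in all 3 libraries. The median granule share of CLP neutrophils went down over these bands too, from 8.51% to 4.92% of UMIs. At a like granule share Ifitm6 still went down in CLP neutrophils at 3 to 6%, from 7929 to 6276 CPM, and at 6 to 10%, from 10522 to 7590 CPM. It was nearly flat in CLP at 10% or more, from 10604 to 10212 CPM, and at 1 to 3%, from 5250 CPM in 10 cells to 5195 CPM. In HDCA+CLP it went down in the ranges from 3% upward but at 1 to 3% went from 3409 CPM in 11 cells to 6044 CPM. Ifitm1 went up in each of the 4 CLP ranges, for example from 904 to 1520 CPM at 6 to 10%. Ifi27l2a also went up in each range of both CLP libraries, but by less at 6 to 10% than over all neutrophils. There it went from 1064 to 1328 CPM in HDCA+CLP and from 427 to 633 in CLP.

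In T cells Ifi27l2a also climbed with the interferon list, from cells with 0 to 1 list UMIs to those with 8 or more. It went from 613 to 1695 CPM in HDCA+CLP, from 466 to 1619 in CLP and from 504 to 1416 in Sham. The bands of CLP and Sham T cells at like list UMIs were closer to each other than the whole T cell levels of 1083 and 696 CPM, and 911 of the thinned CLP T cells lay in the top band against 190 of the Sham ones. In monocytes the gene went from 1630 to 2944 CPM in HDCA+CLP, from 815 to 2010 in CLP, by way of 2167 at 6 to 9 list UMIs, and from 955 to 2500 in Sham, where the top band holds 19 cells.

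**Figure D5:**
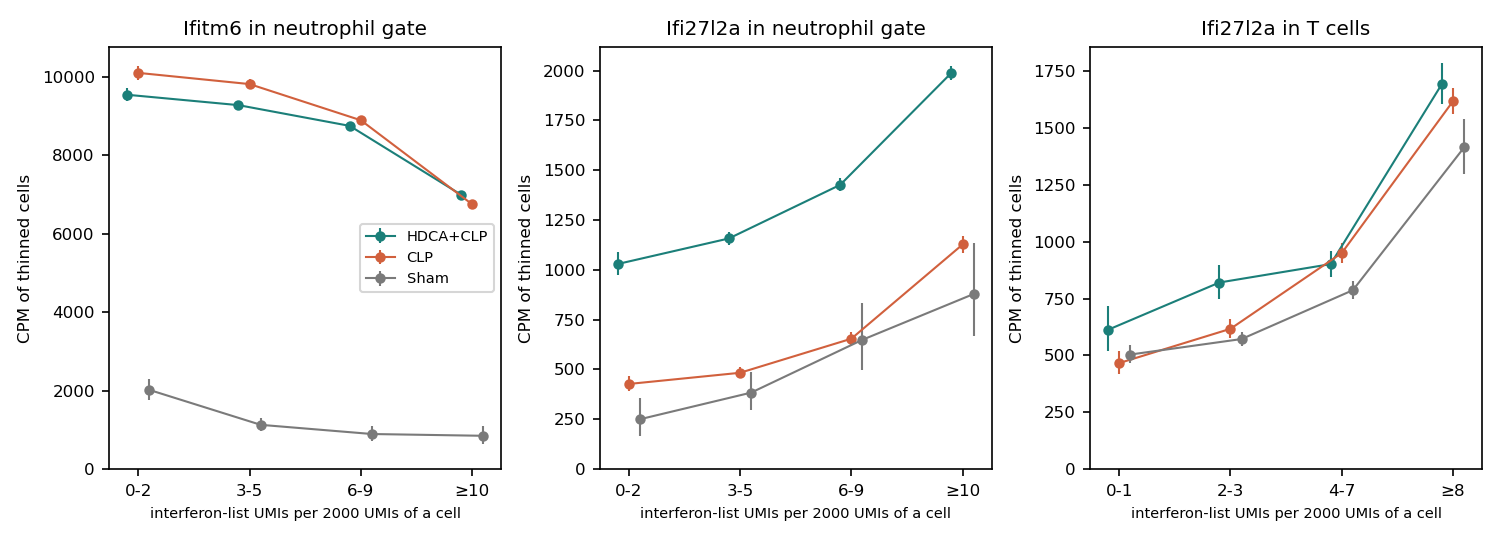
Level (CPM of cells thinned to 2000 UMIs, linear axis) of Ifitm6 and Ifi27l2a in neutrophils and of Ifi27l2a in T cells by the UMIs of 41 interferon response genes in the same thinned cell, for HDCA+CLP, CLP and Sham; bars are 95% Poisson intervals. Ifi27l2a climbs along the bands in all 3 libraries and Ifitm6 goes down, from 10098 to 6748 CPM in CLP.

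Over the 15 lineage and library points, which share libraries and the free RNA in them, Ifitm2 and Ifitm3 were most alike of the 5, with a Pearson correlation of log2(CPM + 10) of 0.98. Ifi27l2a had 0.44 to 0.65 with the Ifitm genes. Among 3659 other genes, those most like Ifitm1 were Ccr1, a chemokine receptor (0.98), Wfdc17 and C5ar1, the receptor of complement C5a (both 0.97). Hp, haptoglobin (0.99), Mafg and Chil3 (both 0.98) were most like Ifitm2, and Lgals3, galectin-3, and Hp (both 0.98) and Chil3 (0.98) most like Ifitm3. Mmp8, neutrophil collagenase, and Wfdc21 (both 0.96) and Alox5ap (0.96) were most like Ifitm6. The nearest genes of Ifi27l2a were less close: Slfn5 (0.87), itself on the interferon list, Plac8 (0.87) and Nfkbia (0.79).

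Of the other genes of both families, Ifitm10 stood out from the 5 by being highest in NK cells, at 59.9 CPM in HDCA+CLP, 87.7 in CLP and 165 in Sham, and by being lower there in both CLP libraries. Ifi27 lay between 31.8 and 154 CPM in every lineage and library. In neutrophils Ifi27 had 126 CPM in HDCA+CLP, 154 in CLP and 90.6 in Sham, so it did not share the higher HDCA+CLP level of Ifi27l2a. Ifitm5, Ifitm7 and Ifi27l2b had 450, 7 and 3 UMIs in all gated cells. Close copies can share tags: the longest exact stretch common to annotated transcripts was 69 bases for Ifitm2 and Ifitm3, 64 for Ifitm1 and Ifitm3, 40 for Ifitm1 and Ifitm2, and at most 25 for Ifitm6 with any of them. The sources used here do not state how reads that match more than 1 of them were counted, so small Ifitm1, Ifitm2 and Ifitm3 counts beside each other are uncertain.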

How the data were processed

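Per the labels' protocols, hyaluronidase and DNase I were used on the blood cells, followed by 10x 3′ v3 chemistry and paired 150 bp reads. Each deposited matrix holds counts, as whole UMIs by gene and barcode. The submitters' processing notes name Cell Ranger 5.0.1, Seurat 4.0.6, R 4.0.3 and mm39. Totals were 95178381 UMIs in HDCA+CLP, 87031721 in CLP and 42427093 in Sham, over 12205, 11387 and 7159 barcodes. GRCm38 coordinates come from the reference annotation alone, to which 30934 of 31053 gene IDs matched.

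Kept were cells of 500 UMIs or more and 200 genes or more, with mitochondrial UMIs of 10% or less. Doublets were scored against 2 simulated doublets per cell over 30 principal components of 2000 variable genes, and the highest scores were removed at 0.8% per 1000 barcodes: 1174 (9.76%), 987 (9.11%) and 395 (5.73%) cells. Of these, 30.7%, 41.4% and 56.7% passed 2 lineage gates, against 1.68%, 3.44% and 1.31% of kept cells. UMIs were summed by gate and scaled to CPM. Intervals are Poisson for levels, Clopper-Pearson for shares and conditional binomial for ratios. A gene was measured with at least 20 UMIs over 2 libraries; 2-fold was the limit for counts, and a level of 0 was set to 3 counts in ratios. With 1 library per group no test was possible. PCR and droplet effects lie outside the intervals. The ratio script was tested on simulated data. The genes, lists and ranges were chosen with earlier results of these data known; named were the 5 genes, their family, the 3 most alike genes of each (among genes with at least 200 UMIs and a range of at least 2 on the log2 scale), the 2 highest and 2 lowest of the interferon list and the pathway genes by role. The basophil, progenitor, T cell and monocyte subsets were chosen after values were seen. Python 3.11.15, NumPy 2.4.6, SciPy 1.17.1, pandas 2.3.3, scikit-learn 1.9.0 and matplotlib 3.10.9 were used.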

Additional observations from a re-analysis of the deposited data

Results flagged for a closer look

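Ifitm1 had opposite signs between lineages in CLP over Sham: its log2 ratio was -2.12 in neutrophils and above 0 in the other 4 lineages. The ratio in monocytes exceeded that in neutrophils by 4.757, that in B cells by 8.429, that in T cells by 5.474 and that in NK cells by 7.594 on the log2 scale. These differences were not tested, since each group is 1 library. Beside them stand the granule share of neutrophils, with medians of 6.79% in CLP and 0.448% in Sham, and, for B cells, the 11 CLP cells at the monocyte gate; their part was not tested.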

How the results depend on the processing

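In CLP over Sham the counts of 16 higher and 1 lower pairs stayed within 1.5 times of these values under every alternative run; the lowest count was 11 higher and 1 lower, among the 21 pairs that still had 20 UMIs with the last change named below. In HDCA+CLP over CLP the count of higher pairs, 1 as reported, was 2 with the mean over cells of per-cell CPM, 2 with cells passing 1 gate only and 3 with free neutrophil RNA subtracted; the count of lower pairs, 3 as reported, was 1, 0 and 5 in these settings. An alternative chosen after seeing the data left out lymphocytes passing the monocyte gate, which gave 2 higher and 0 lower. A further such alternative also subtracted free RNA, which gave 6 higher. Lower by at least 2-fold with both changes were Ifitm2 in B cells, at -1.66, and Ifitm3 in NK cells, at -2.67. Reversed signs were as follows. Ifitm6 in CLP over Sham was 5.44 in T cells against -0.73 with free RNA subtracted or -1.59 with both changes, where CLP was set to 3 counts. In NK cells both changes left Ifitm6 at or under 3 counts in CLP and in Sham, so no ratio is given there. In B cells, HDCA+CLP over CLP, Ifitm1 was -2.41 and turned to 1.06 with 1 gate only and 0.99 without cells at the monocyte gate. With both changes it was 1.01, from 34 UMIs in HDCA+CLP and 21 in CLP before the subtraction. Ifitm2 was -2.24 and turned to 0.0069 with 1 gate only. Ifitm3 was -1.87 and turned to 0.43 with 1 gate only and 0.32 without cells at the monocyte gate. The cause was not tested beyond these changes of the cells and UMIs summed. No other ratio of at least 2-fold changed sign. Scaling alone (median-of-ratios size factors, or totals without S100a8, S100a9, mitochondrial and haemoglobin genes) reversed 0 of 50 ratios. No paired analysis was possible because each group has 1 library. Depth limits Sham neutrophils, with 232 cells, and Sham NK cells, where 0 to 7 UMIs stand behind each gene.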
